A study of Mus musculus with 12 samples.

Results

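Pomc and Cartpt encode appetite-suppressing peptides of the arcuate nucleus of the hypothalamus. They were taken by symbol from a count table of 52638 entries, 1 row for each gene, and make up 2 of those entries. Pomc gives a precursor that is cut into melanocyte-stimulating hormones, adrenocorticotropic hormone and beta-endorphin. Cartpt gives the precursor of the cocaine- and amphetamine-regulated transcript (CART) peptides. In the arcuate nucleus many neurons make both. Leptin, released by fat, acts on these neurons through LepRb, the long form of its receptor, which activates the transcription factor STAT3. The melanocortins made from Pomc lower food intake through the receptors Mc3r and Mc4r, and Agrp, made by a neighbouring group of arcuate neurons, blocks those receptors. Outside the arcuate nucleus, Pomc is made at high level in the pituitary, and Cartpt is made in premammillary, lateral and paraventricular neurons of the hypothalamus.

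RNA was taken from the hypothalamus of adult mice, from 3 pools per genotype with 5 to 8 animals in each. Both genotypes carried LepRb-Cre/Cre and R26-GFP:L10a/GFP:L10a, so that Cre made in cells with LepRb switched on a fluorescent tag on the ribosomal protein L10a. Ctrl mice had these alleles alone, and Stat3KO mice were also Stat3-flox/flox, so that Cre can cut Stat3 in cells with LepRb. No strain, sex or age in weeks is stated. Each pool gave RNA on tagged ribosomes pulled down with beads (bead) and the RNA depleted of tagged ribosomes (supernatant, sup), so 12 libraries form 4 groups of 3. Cre in this design marks every LepRb cell of the dissected block, of which Pomc neurons are 1 group, and not all Pomc neurons carry LepRb.

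Pomc (ENSMUSG00000020660) lies on the plus strand of GRCm38 at chr12:3954951-3960642. Its exons cover 1318 bases, and the annotation lists 5 transcripts of 3 to 4 exons. Cartpt (ENSMUSG00000021647) lies on the minus strand at chr13:99898489-99901091, with exons of 1277 bases in all and 2 transcripts of 3 exons. No annotated gene overlaps either one. The nearest gene to Pomc is Efr3b at 1912 bases, and the nearest to Cartpt is Mccc2 at 47439 bases.

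The promoters are shown because both genes were lower in the same comparison and are described as targets of leptin signalling. Each sequence runs from 250 bases before to 50 bases after the RefSeq start in GRCm38.p6, which for Pomc is chr12:3954695-3954994 on the plus strand and for Cartpt is chr13:99900634-99900933 on the minus strand. Both are read 5′ to 3′ in the direction of transcription. The Cartpt window lies wholly inside the gene as annotated above, which on the minus strand starts at 99901091, so bases before that start were not searched. Capitals mark matches to any of the motifs named after them.
Pomc: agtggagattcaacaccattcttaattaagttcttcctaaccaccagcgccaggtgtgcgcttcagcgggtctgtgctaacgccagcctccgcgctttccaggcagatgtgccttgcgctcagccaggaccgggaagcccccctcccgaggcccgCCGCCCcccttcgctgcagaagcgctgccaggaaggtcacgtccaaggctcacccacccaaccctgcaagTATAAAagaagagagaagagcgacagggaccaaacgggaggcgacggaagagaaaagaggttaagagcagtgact
Cartpt: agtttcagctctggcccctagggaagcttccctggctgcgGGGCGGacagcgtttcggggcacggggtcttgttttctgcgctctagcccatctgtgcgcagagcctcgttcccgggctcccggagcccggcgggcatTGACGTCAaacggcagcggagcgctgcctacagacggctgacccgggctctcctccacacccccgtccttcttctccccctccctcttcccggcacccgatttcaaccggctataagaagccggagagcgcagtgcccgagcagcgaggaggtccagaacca
On both strands, 5 motifs were searched: the STAT motif TTCNNNGAA, the cAMP response element TGACGTCA, the FOXO motif GTAAACA, the Sp1 motif GGGCGG and the TATA box TATAAA. No matches overlapped each other, apart from the cAMP response element, which reads the same on both strands. Pomc held a TATA box 25 bases before the start and an Sp1 match on the minus strand, seen as CCGCCC, 95 bases before it. Cartpt held a cAMP response element 112 bases before the start and an Sp1 match 210 bases before it. Among 32851 promoters of the same length, 13.6% held the TATA box, 1.79% the cAMP response element and 35.7% the Sp1 motif. Neither promoter held the STAT or the FOXO letters, which stood in 8.3% and 3.65% of all promoters. These are matches of letters in a window, and the data hold no measure of binding.

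Levels are counts scaled to a common library size (CPM) with TMM factors. In Ctrl bead RNA, Pomc stood at 518.5, 575.9 and 469.7 CPM in pools 1, 2 and 3. In Stat3KO bead RNA it stood at 142.4, 138.5 and 101.5 CPM. The groups did not overlap, and the lowest Ctrl pool was above the highest Stat3KO pool by a wide margin. In the supernatant, Pomc stood at 11.03, 14.58 and 11.97 CPM in Ctrl and at 7.67, 7.53 and 6.17 CPM in Stat3KO. Here the gap was narrower, and every Ctrl pool was still above every Stat3KO pool. From high to low, the order of its means was Ctrl bead at 521.4 ± 53.2 CPM, Stat3KO bead at 127.4 ± 22.6, Ctrl sup at 12.5 ± 1.84 and Stat3KO sup at 7.12 ± 0.831 (SD, n = 3 each). No neighbours in this order overlapped. The smallest Pomc count in any library was 156 reads.

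Cartpt stood at 564.1, 428.9 and 559.2 CPM in Ctrl bead RNA. In Stat3KO bead RNA it stood at 219.3, 177.6 and 127.6 CPM, again below every Ctrl pool. In the supernatant it stood at 47.07, 38.16 and 42.07 CPM in Ctrl and at 54.38, 38.07 and 28.42 CPM in Stat3KO. These supernatant groups overlapped, with the highest and the lowest library both from Stat3KO. The order of its means was Ctrl bead at 517.4 ± 76.7 CPM, Stat3KO bead at 174.8 ± 45.9, Ctrl sup at 42.4 ± 4.47 and Stat3KO sup at 40.3 ± 13.1 (SD, n = 3 each), and the last pair did not differ beyond its spread. The smallest Cartpt count in any library was 719 reads.

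**Figure D1:**
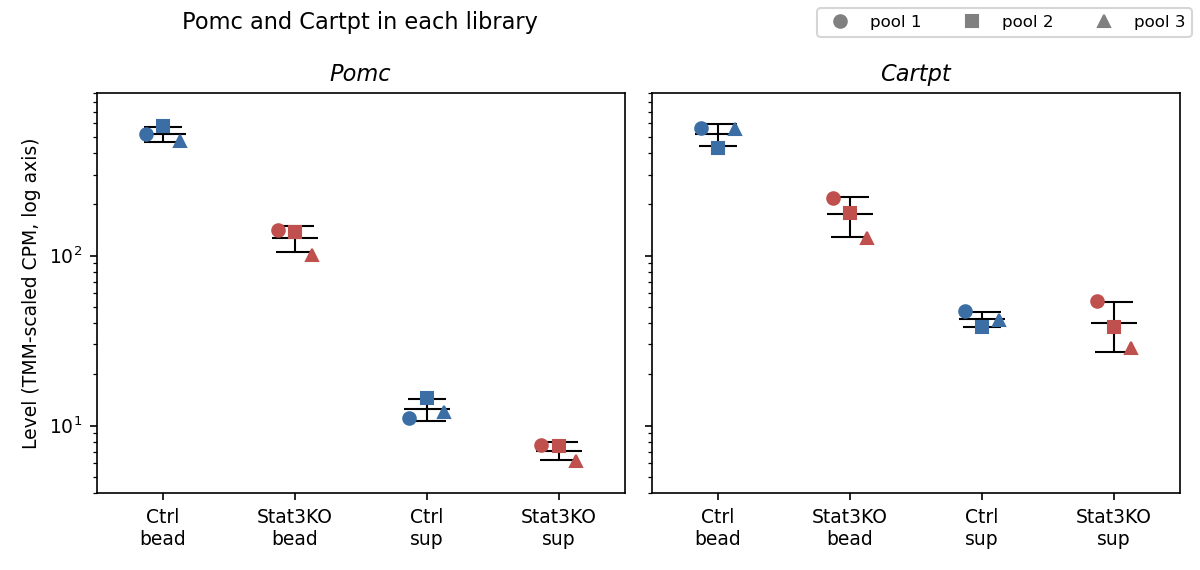
Level of Pomc (left) and Cartpt (right) in each library, in TMM-scaled CPM on a log axis. Points are libraries, shaped by pool number and coloured by genotype (blue Ctrl, red Stat3KO), and bars show the mean ± SD of 3. Both genes are lower in Stat3KO than in Ctrl bead RNA in every pool, while the Cartpt supernatant groups overlap.

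Per length, the 2 genes were at a like level in Ctrl bead RNA and apart in the other groups. The mean of Pomc was 395.6 CPM per kilobase of exon in Ctrl bead RNA and that of Cartpt 405.2, which placed them 68th and 62nd of 19087 genes. In Stat3KO bead RNA the means were 96.7 for Pomc and 136.9 for Cartpt, and the ranks 506th and 308th. In the Ctrl supernatant Pomc stood at 9.5 CPM per kilobase, 5121st, and Cartpt at 33.2, 1445th. In the Stat3KO supernatant they stood at 5.41, 7358th, and 31.6, 1597th.

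The spread between pools was wider for Cartpt than for most genes. Its SD of log2 CPM within a group was 0.225 in Ctrl bead, 0.394 in Stat3KO bead, 0.151 in Ctrl sup and 0.468 in Stat3KO sup. The median over genes at 5 CPM or more was 0.179, 0.191, 0.125 and 0.145 in the same groups. For Pomc the SD was 0.147, 0.271, 0.206 and 0.173, which was below the median gene in Ctrl bead RNA and above it in the other groups.

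The first question was whether RNA on the ribosomes of LepRb cells differs without STAT3. Both genes fell in Stat3KO bead RNA. Pomc was 4.09-fold lower (log2 fold change -2.03, SE 0.171, edgeR adjusted p = 0.000166). Cartpt was 2.96-fold lower (log2 fold change -1.56, SE 0.206, edgeR adjusted p = 0.0056). Among 17354 genes tested, 0.449% were called, of which 5 fell, or 0.0288%, and 73 rose, or 0.421%. Pomc and Cartpt were 2 of those 5. With replicates 2 and 3 alone, a setting chosen after the data were seen, the split of calls turned to 273 higher, or 1.56%, and 894 lower, or 5.1%. By size of the fold change they ranked 12th and 30th from the lowest. Genes lower in every Stat3KO pool than in every Ctrl pool made up 4.27% of those tested, and genes higher in every pool 5.1%. The direction held without any 1 library, at -2.12 to -1.89 for Pomc and -1.76 to -1.38 for Cartpt, and all of these passed the test. When libraries were scaled to the transgene Gfp_L10a, a setting also chosen then, Pomc passed (log2 fold change -1.92, edgeR adjusted p = 0.0118) and Cartpt did not (-1.45, adjusted p = 0.287). Bead RNA comes from many cells at once. Fewer tagged cells with Pomc or Cartpt and less of their RNA on tagged ribosomes per cell cannot be told apart.

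Stat3 itself, whose labels say it was floxed, stood at 166 ± 19.6 CPM in Ctrl and 141 ± 23.6 CPM in Stat3KO bead RNA (SD, n = 3), with a log2 fold change of -0.24 (edgeR adjusted p = 0.999). Gene counts do not show which exons the reads came from, so this level does not check the deletion. Gfp_L10a, which marks the pull-down, stood at 131 ± 33.5 CPM in Ctrl and 131 ± 42.2 CPM in Stat3KO bead RNA, and was lowest in pool 1 of both genotypes, at 97.5 and 82.4 CPM. Lepr, the leptin receptor gene, stood at 10.7 ± 4.2 and 11.5 ± 1.86 CPM in bead RNA of Ctrl and Stat3KO. The levels of both overlapped between genotypes. Library totals ranged from 20743217 to 41829907 counts.

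In the supernatant, the change of Pomc did not pass the test and that of Cartpt was near 0. Pomc had a log2 fold change of -0.82 (SE 0.157, unadjusted p = 0.000228, edgeR adjusted p = 0.197) and ranked 20th by p among 18547 genes. Cartpt had a log2 fold change of -0.08 (SE 0.193, edgeR adjusted p = 0.964). In this comparison edgeR called 2 genes lower, or 0.0108%, and 0 genes higher, or 0.0%. A total of 1149 genes, or 6.2%, had an unadjusted p below 0.05, and DESeq2 called 14 higher and 29 lower, or 0.232% in all. DESeq2 put Pomc past the threshold (log2 fold change -0.82, adjusted p = 0.00242), as did a fit with no filter on low counts (adjusted p = 0.000352). Genes with Stat3KO below Ctrl in every pool made up 6.26% of those tested, so the lack of overlap of Pomc was shared with many genes. The summed oligodendrocyte and microglia markers did not overlap between these groups either, with Stat3KO below Ctrl. The 10 oligodendrocyte markers summed to 5760 to 7310 CPM in Ctrl sup and 4790 to 5430 CPM in Stat3KO sup, with a median log2 fold change of -0.51 and 6 of 10 at an unadjusted p below 0.05. The 10 microglia markers summed to 105 to 116 and 71.0 to 99.2 CPM (4 of 10 at that p), and the 10 astrocyte markers to 1820 to 1880 and 1610 to 1870 CPM (5 of 10). No glial marker passed with edgeR, and DESeq2 called 1 oligodendrocyte and 1 astrocyte marker lower. The lowest edgeR p was that of Aqp4, the water channel of astrocytes, at a log2 fold change of -0.83 (edgeR adjusted p = 0.0895). Their part in the Pomc value was not tested. In bead RNA the sums of these 3 lists overlapped between genotypes, at 1850 to 3150 and 1760 to 2530 CPM for oligodendrocytes, 38.8 to 60.6 and 28.2 to 48.8 CPM for microglia, and 917 to 1440 and 867 to 1120 CPM for astrocytes in Ctrl and Stat3KO. Sums of the endothelium, tanycyte and choroid plexus lists overlapped between genotypes in both fractions.

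The pituitary is a further source of Pomc, and its hormones were low in all libraries. The 6 hormone genes of the pituitary marker list (Gh, Prl, Cga, Tshb, Lhb and Fshb) summed to 1.32 to 3.05 CPM in Ctrl bead RNA and to 1.0 to 1.65 CPM in Stat3KO bead RNA, against a Pomc level of over 100 CPM in each. In the supernatant they summed to 4.3 to 11.5 CPM in Ctrl and to 3.0 to 3.95 CPM in Stat3KO. The 11 genes of the whole list summed to 27.4 to 38.7 CPM in Ctrl bead, 30.0 to 36.5 in Stat3KO bead, 16.0 to 26.9 in Ctrl sup and 19.5 to 24.2 in Stat3KO sup. Pou1f1, a defining factor of other pituitary cells, was at 0 in 3 of the 4 groups, and Prl, the prolactin gene, was at 0 in Stat3KO bead RNA. None of the genes of this list that could be tested passed between genotypes with edgeR or DESeq2, 4 in bead RNA and 7 in the supernatant, where 2 had an unadjusted p below 0.05. Pool 2 of the Ctrl supernatant held the highest Gh and Prl, 7.28 CPM together against at most 1.11 in any other supernatant library, and also the highest supernatant Pomc. Without that library the log2 fold change of Pomc in the supernatant was -0.69 (edgeR adjusted p = 0.767). The part of pituitary RNA in the supernatant value was not tested further.

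Markers of the other hypothalamic sites of Cartpt did not pass between genotypes in bead RNA. In the premammillary list the 4 markers summed to 1100 to 1280 CPM in Ctrl bead RNA and to 959 to 1150 CPM in Stat3KO bead RNA, which overlapped. One of them, Slc6a3, the dopamine transporter, stood at 185, 421 and 368 CPM in Ctrl bead RNA and at 218, 214 and 229 CPM in Stat3KO, with a log2 fold change of -0.56 (edgeR adjusted p = 0.999). The 4 markers of neurons with melanin-concentrating hormone summed to 130 to 141 and 84.7 to 140 CPM, and the 5 paraventricular markers to 97.7 to 201 and 83.7 to 228 CPM, in Ctrl and Stat3KO bead RNA. No gene of these 3 lists passed with edgeR or DESeq2 in bead RNA, and 1 premammillary and 1 melanin-concentrating hormone marker had an unadjusted p under 0.05. In the supernatant 0 genes of these lists passed with edgeR, 1 premammillary and 1 paraventricular marker had an unadjusted p below 0.05, and DESeq2 called 1 paraventricular marker higher. That gene, Avp (vasopressin), stood at 91.2, 66.8 and 85.9 CPM in Ctrl sup and 182, 164 and 115 CPM in Stat3KO sup (log2 fold change 0.91, edgeR adjusted p = 0.176). The part of these cells in the Cartpt values was not tested. The 10 general neuron markers summed to 10100 to 10700 CPM in Ctrl and 9180 to 12200 CPM in Stat3KO bead RNA, and 0 of 10 passed with either tool, with 0 at an unadjusted p under 0.05.

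The second question was how far the level of each gene in bead RNA exceeded that in the supernatant. This ratio compares scaled levels between the fractions and does not measure how much of a transcript sits on ribosomes. Both genes were far higher on the beads than in the supernatant in both genotypes. In Ctrl, Pomc was 41.6-fold higher (log2 fold change 5.38, SE 0.161, edgeR adjusted p = 2.38e-06), the 2nd largest of 18036 genes. Cartpt was 12.3-fold higher (log2 fold change 3.62, SE 0.152, adjusted p = 1.19e-05), the 14th largest. In this comparison 20.7% of genes were called higher, 21.2% were called lower and 26.1% were higher in every bead library than in every supernatant library. In Stat3KO, Pomc was 17.7-fold higher on the beads (log2 fold change 4.15, SE 0.181, edgeR adjusted p = 1e-05) and ranked 25th of 18107 genes. Cartpt was 4.3-fold higher (log2 fold change 2.11, SE 0.259, adjusted p = 0.000695) and ranked 145th. Here 14.7% of genes were called higher and 23.9% did not overlap in that direction. With library totals in place of TMM factors the split of calls moved from 3735 higher and 3829 lower to 2387 and 4906 in Ctrl, and from 2669 and 3135 to 1842 and 3716 in Stat3KO. Both genes stayed higher on the beads in both genotypes under that scaling. The main test here did not use the pairing of the fractions within pools. With the pool as a block, 5307 genes were called higher and 5237 lower in Ctrl, and 4290 and 4709 in Stat3KO. Pomc and Cartpt passed in both genotypes with that block.

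Since bead and supernatant RNA of 1 pool come from the same mice, the ratio can be read pool by pool. For Pomc the bead level was 47.0, 39.5 and 39.3 times the supernatant level in Ctrl pools 1, 2 and 3. In Stat3KO it was 18.6, 18.4 and 16.5 times. For Cartpt it was 12.0, 11.2 and 13.3 times in Ctrl and 4.03, 4.66 and 4.49 times in Stat3KO. The pools of a genotype lay close together and those of the genotypes were apart for both genes. A lower ratio in every Stat3KO pool was found for 5.24% of genes. Gfp_L10a differed in this respect, at 8.37, 16.8 and 11.8 times in Ctrl and 11.14, 11.01 and 9.65 times in Stat3KO, which overlapped. The Stat3KO pool with the highest Cartpt on the beads also had the highest in the supernatant, and the lowest was the same pool in both, so that the ratio varied less than the levels.

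**Figure D2:**
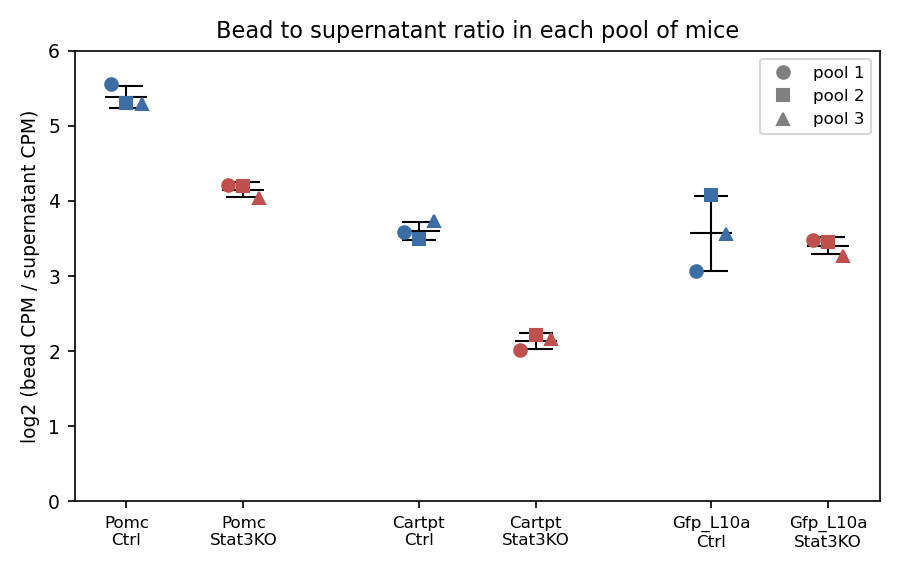
Bead level over supernatant level in each pool, as log2 of the ratio of CPM, for Pomc, Cartpt and the transgene Gfp_L10a. Points are pools, coloured by genotype (blue Ctrl, red Stat3KO), and bars show the mean ± SD of 3 pools. For Pomc the Ctrl pools sit between 5.3 and 5.56 and the Stat3KO pools between 4.04 and 4.21, and the Gfp_L10a pools overlap.

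The ratio was smaller in Stat3KO for both genes, and the test of that difference across all 12 libraries passed for Pomc. Its bead to supernatant ratio was 2.33-fold smaller in Stat3KO (log2 difference -1.22, SE 0.219, edgeR adjusted p = 0.0352). That of Cartpt was 2.82-fold smaller (log2 difference -1.49, SE 0.314, adjusted p = 0.117) and did not pass. With the pool as a block, which fits the pairing of the fractions, both passed, at a log2 difference of -1.47 (SE 0.106, edgeR adjusted p = 1.66e-05) for Cartpt and an adjusted p of 0.000183 for Pomc. Of 19122 genes, 0.204% were called without the block: 2 had a smaller ratio in Stat3KO, or 0.0105%, and 37 a larger one, or 0.193%. Without the block, the Pomc call was kept when Ctrl bead pool 3, Stat3KO bead pool 1, Ctrl sup pool 2 or Stat3KO sup pool 3 was left out. It was lost without each of the other 8 libraries (adjusted p up to 0.141) and with limma-voom (adjusted p = 0.0709), while its log2 difference stayed at -1.35 to -1.08 throughout. The same test compares the genotype effect on the beads with that in the supernatant.

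Within a library the ratio of Pomc to Cartpt counts does not depend on scaling. In Ctrl bead RNA there were 0.919, 1.34 and 0.84 Pomc reads for each Cartpt read, and in Stat3KO bead RNA 0.649, 0.78 and 0.795. In the supernatant there were 0.234, 0.382 and 0.284 in Ctrl and 0.141, 0.198 and 0.217 in Stat3KO. The ratio was lower in every Stat3KO pool than in every Ctrl pool in both fractions, by 1.37-fold on the beads (log2 difference -0.46) and 1.61-fold in the supernatant (-0.69). It was 3.44-fold higher on the beads than in the supernatant in Ctrl and 4.05-fold higher in Stat3KO. Each of the 4 comparisons had a 2-sided exact permutation p of 0.1, adjusted over the 4 to 0.1. That is the smallest p that 3 against 3 libraries can give in this test, so none can pass 0.05. For bead against supernatant the test did not use the pairing of the fractions within pools.

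**Figure D3:**
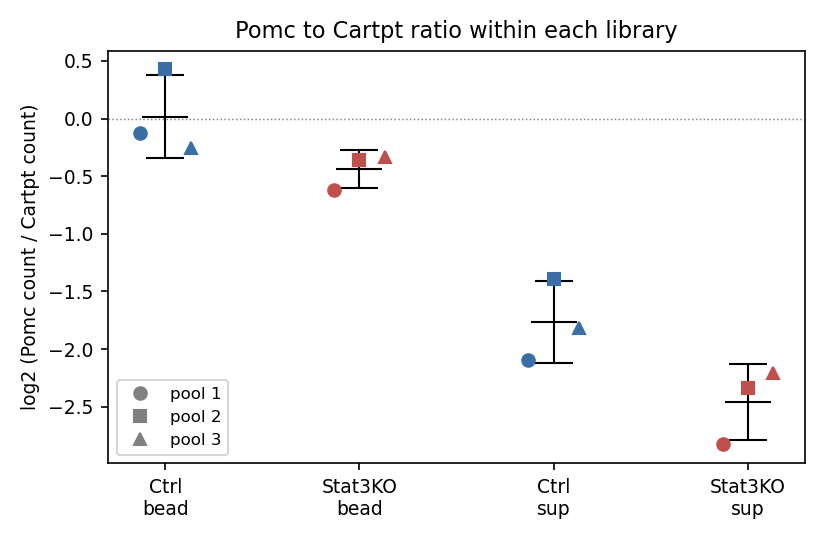
Log2 of the Pomc count over the Cartpt count within each library, by group. Points are libraries, shaped by pool number and coloured by genotype (blue Ctrl, red Stat3KO), and bars show the mean ± SD of 3. The supernatant libraries lie below the bead libraries in both genotypes, and Stat3KO lies below Ctrl in both fractions.

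Genes of the pathway around both peptides were described as lists, with all-gene medians of the log2 fold change near 0 in bead RNA (-0.01). In the peptide processing list (Pcsk1, Pcsk2, Cpe, Pam, Scg5, Pcsk1n and Prcp), 0 of 7 genes passed between genotypes in bead RNA with edgeR, DESeq2 or limma-voom, which called 0.449%, 0.715% and 0.455% of all genes. Of the 7, 1 had an unadjusted p under 0.05, as did 4.11% of all genes. The median log2 fold change was -0.27. Pcsk1, the convertase that makes the first cuts in the Pomc precursor, had a log2 fold change of -0.42 (edgeR adjusted p = 0.999). Pcsk1n, which inhibits it, had the largest value of the list at -0.78 (adjusted p = 0.999), and its Ctrl bead level ranged from 563 CPM to 1590 CPM. On the beads against the supernatant, 4 of the 7 were higher in Ctrl and 3 in Stat3KO, against 20.7% and 14.7% of all genes. Among them in Ctrl were Pcsk1 at 1.37 (edgeR adjusted p = 0.00973) and Pam, which amidates the cut peptides, at 1.33 (adjusted p = 0.00281).

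Of the melanocortin list, 10 of 11 genes were found by symbol and 6 were tested, since Mc1r, Mc2r, Mc5r and Mrap had too few counts. Only Agrp passed in bead RNA, where it rose. It stood at 129, 139 and 120 CPM in Ctrl bead and 724, 374 and 292 CPM in Stat3KO bead RNA (log2 fold change 1.84, SE 0.289, edgeR adjusted p = 0.0198). The receptors had values of -0.38 for Mc3r and -0.29 for Mc4r (adjusted p = 0.999 each). Mc3r was higher on the beads than in the supernatant, at 2.49 in Ctrl (adjusted p = 9.73e-05). Of the 4 opioid receptors, through which beta-endorphin acts, 0 passed in bead RNA with edgeR, DESeq2 or limma-voom, and 1, Oprd1, had an unadjusted p under 0.05. The median log2 fold change was -0.54 and the largest that of Oprm1 at -0.70 (SE 0.445, adjusted p = 0.999).

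Of 13 transcription factors and coactivators described for these genes or for Pomc neurons, 0 passed between genotypes in bead RNA with any of the 3 tools, and 2 had an unadjusted p under 0.05. The median log2 fold change was 0.01. The 2 were Prdm12, a factor needed for Pomc expression in mice, and Foxo1, which represses Pomc. Prdm12 stood at 11.3, 11.7 and 9.42 CPM in Ctrl bead and at 5.66, 7.25 and 6.84 CPM in Stat3KO bead RNA, with no overlap (log2 fold change -0.71, SE 0.189, edgeR adjusted p = 0.429). Foxo1 had a log2 fold change of 0.41 (adjusted p = 0.999). Isl1, which is required for Pomc to be switched on, had a value of 0.12 (adjusted p = 0.999). On the beads against the supernatant, 8 of the 13 were higher and 1 lower in Ctrl, against 20.7% and 21.2% of all genes. The highest was Tbx3, a factor of arcuate neurons, at 3.41 (adjusted p = 8.05e-06). A further list of 7 genes described in Pomc neurons shared most members with those 13. It held Prdm12, Isl1, Tbx3, Nkx2-1 and Nhlh2, all counted above, and Glipr1 and Anxa2. Of these 7 genes, 7 were higher on the beads in Ctrl and 6 in Stat3KO. These calls stood against 20.7% and 14.7% of all genes. Between genotypes in bead RNA, 0 of the 7 passed with any of the 3 tools, with 1, again Prdm12, at an unadjusted p under 0.05.

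Of 13 receptors described on Pomc neurons, 0 passed between genotypes in bead RNA with edgeR or limma-voom and 3 had an unadjusted p under 0.05 (4.11% of all genes did), with a median log2 fold change of -0.18. DESeq2 called 1 lower. The largest was Npy1r, a receptor for neuropeptide Y, at 22.7, 25.1 and 30.9 CPM in Ctrl bead and 15.0, 16.0 and 13.6 CPM in Stat3KO bead RNA (log2 fold change -0.82, SE 0.169, edgeR adjusted p = 0.108). The other pair were Npy2r at -0.65 (adjusted p = 0.973) and Glp1r, the receptor for glucagon-like peptide 1, at -0.69 (adjusted p = 0.999). On the beads, 8 of the 13 were higher than in the supernatant in Ctrl and 7 in Stat3KO, against 20.7% and 14.7% of all genes, among them Lepr at 2.37 and 2.3 (adjusted p = 0.000854 and 8.71e-05). In Ctrl 2 were lower on the beads, the insulin receptor gene Insr at -0.92 (adjusted p = 0.00208) and Igf1r, the receptor of insulin-like growth factor 1, at -0.61 (adjusted p = 0.0343, lost in a fit of all 12 libraries and without 4 of the 6 libraries left out in turn), and in Stat3KO 1, Insr at -0.83 (adjusted p = 0.0136, lost without Stat3KO sup pool 2).

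Of 10 other peptides that lower feeding, 0 passed between genotypes in bead RNA with edgeR or limma-voom, 1 had an unadjusted p under 0.05 and DESeq2 called 1 lower. The median log2 fold change was -0.14. The largest was Nts, neurotensin, at 94.9, 121 and 176 CPM in Ctrl bead and 77.1, 38.0 and 41.4 CPM in Stat3KO bead RNA (log2 fold change -1.32, SE 0.293, edgeR adjusted p = 0.169). Of 6 peptides that raise feeding, 2 rose, Agrp as above and Npy, neuropeptide Y, from 487 ± 23.7 to 1540 ± 661 CPM (SD, n = 3, log2 fold change 1.66, adjusted p = 0.016). Without any 1 Ctrl bead library neither passed, with an adjusted p of 0.0578 to 0.129 for Agrp and 0.053 to 0.106 for Npy, and their log2 fold changes stayed above 1.2 without any 1 library. In the supernatant 0 genes of any of these lists passed with edgeR. DESeq2 called Agrp (edgeR log2 fold change 1.59, adjusted p = 0.0895) and Npy (0.70, adjusted p = 0.329) higher there. All lists were chosen with earlier results of these data known.

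**Figure D4:**
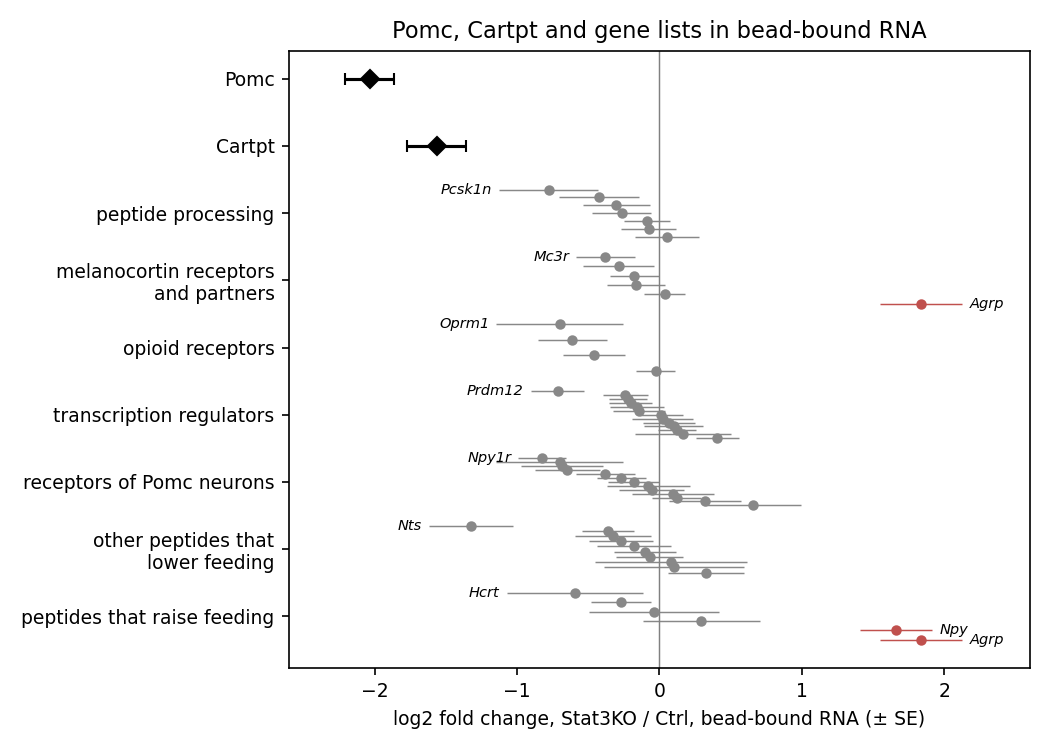
Log2 fold change of Stat3KO over Ctrl in bead RNA (± SE) for Pomc and Cartpt (black) and for each tested gene of the lists drawn. The list of other genes described in Pomc neurons is not drawn on its own. Red marks genes with an adjusted p under 0.05, and the lowest gene of each list is named. Pomc at -2.03 and Cartpt at -1.56 lie below every list gene, and Agrp and Npy lie above 1.6.

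Genes whose pattern over the 12 libraries was most like that of each gene were ranked by the root mean square difference of centred log2 CPM among 15428 genes. This ranking used the values already described and carries no test. For Pomc the nearest were Serpina3n at 0.94, Gsx1 at 0.96, Cartpt at 1.02, Ghrh at 1.04 and Tbx19 at 1.08, against a median of 2.52 over all genes. Of these, Gsx1, Ghrh and Tbx19 shared the rise on the beads but not the genotype difference. Ghrh, growth hormone releasing hormone, stood at 25.0 CPM in Ctrl and 25.5 CPM in Stat3KO bead RNA, and Tbx19, which drives Pomc in the pituitary, at 5.98 and 6.19 CPM. For Cartpt the nearest were Serpina3n at 0.42, Atg7 at 0.564, Fgf20 at 0.566, Nts at 0.568 and Slc6a3 at 0.591, against a median of 1.58, and Pomc ranked 211th. Serpina3n, a serine protease inhibitor, stood at 164 CPM in Ctrl bead and 81.7 CPM in Stat3KO bead RNA (log2 fold change -1.003, SE 0.187, edgeR adjusted p = 0.0595) and at 11.6 and 12.7 CPM in the supernatant. Atg7, a gene of autophagy, had a log2 fold change of -0.60 in bead RNA (adjusted p = 0.999).

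**Figure D5:**
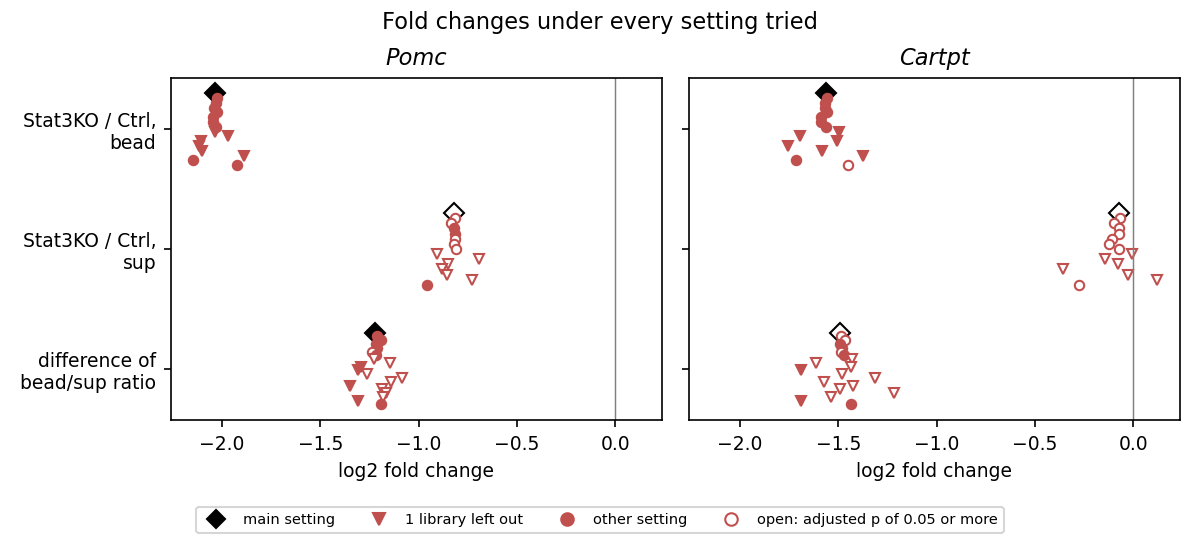
Log2 fold change of Pomc (left) and Cartpt (right) under the main setting (black), with 1 library left out (triangles) and under other settings (circles), for Stat3KO over Ctrl on the beads, in the supernatant, and for the change of the bead to supernatant ratio. Filled symbols have an adjusted p under 0.05. On the beads all values of both genes lie below -1.3, and in the supernatant those of Cartpt lie on both sides of 0.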

How the data were processed

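The deposited table holds raw counts, whole reads per gene in 12 libraries, as the authors made them, without normalisation. The submitters' processing notes name STAR 2.5.3a and the build mm10. The counting step and annotation release were not given in the sources used here. Per the labels' protocols, the block of tissue had edges of 3 mm, RNA integrity numbers were 8 or more, and libraries from polyA RNA were read in 50 cycles, single end, 4 per lane. Strand is not stated.

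Gene names came from GENCODE M21 on GRCm38, which matched 52489 of 52638 identifiers. Another 2 entries are transgenes. There were 0 columns left over. Promoters came from RefSeq (GRCm38.p6), and both genes were matched by symbol.

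Comparisons used edgeR 4.0.16 in R 4.3.3 (TMM, filterByExpr with minimum count 10 and minimum total 15, quasi-likelihood test, 2-sided, Benjamini-Hochberg adjusted p under 0.05 over all genes tested). The difference of ratios used 12 libraries and the other comparisons 6. The procedure was tested on simulated data. Alternatives were DESeq2 1.42.0, limma-voom (limma 3.58.1), size factors by relative log expression, library totals, no filter, all 12 libraries, the replicate number as a block, and each library left out. Replicates 2 and 3 alone, and scaling to Gfp_L10a, were added after the data were seen. Counting error only is covered by depth, and p-values between genotypes measure the spread between pools. For bead against supernatant and the difference of ratios, the main fit took both libraries of a pool as independent.

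Bead and supernatant libraries of 1 number come from 1 pool, per the series design. Their deviations correlated at 0.196 to 0.367 in Ctrl and 0.208 to 0.35 in Stat3KO, against -0.267 to 0.105 for other numbers. Across genotypes the numbers name separate pools (-0.085 to 0.141), so the replicate block has no pairing to fit there.

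Genes named are Pomc, Cartpt, Stat3, Lepr, the transgenes, list genes that passed or had the largest change in bead RNA, and the 5 nearest profiles. Others (Pcsk1, Mc3r, Mc4r, Oprd1, Foxo1, Isl1, Npy2r, Glp1r, Aqp4 and Avp in the comparison of genotypes) were named for their roles or unadjusted p after their values were seen. The genes and lists were chosen with earlier results of these data known. Alternatives were recomputed for both genes, the 8 gene lists, and 29 other genes in the comparisons for which the test is described.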

Additional observations from a re-analysis of the deposited data

Results flagged for a closer look

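The change of Pomc between genotypes differed between the fractions. Its log2 fold change was -2.03 in bead RNA and -0.82 in the supernatant, and the test of the difference across all 12 libraries gave -1.22 (edgeR adjusted p = 0.0352). With the pool as a block, which fits the pairing of the fractions, it passed (log2 difference -1.22, SE 0.114, edgeR adjusted p = 0.000183). Without the block, the call was lost without each of 8 of the 12 libraries (adjusted p up to 0.141) and with limma-voom (adjusted p = 0.0709). Every Stat3KO pool had a smaller bead to supernatant ratio than every Ctrl pool, as did 5.24% of the genes tested.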

How the results depend on the processing

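Between genotypes the replicate block joins separate pools by number, so it adds no support there. In bead RNA, Pomc kept its direction and its call under all 9 other settings (log2 fold change -2.15 to -1.92) and without each library. Cartpt did so under 8 of 9, the exception being scaling to Gfp_L10a (-1.45). The number of genes called there, 78, was 183 with no filter, 124 with DESeq2 and 1167 with replicates 2 and 3 alone (273 higher and 894 lower, against 73 and 5), and 58 to 82 without 1 library. In the supernatant, Pomc passed with no filter (-0.82), with DESeq2 (-0.82) and with replicates 2 and 3 alone (-0.96, adjusted p = 0.00459), and was -0.91 to -0.69 without 1 library. Cartpt was -0.36 to 0.12 there, with the opposite sign without Stat3KO sup replicate 3 (0.12). The 2 genes called became 203 with no filter, 43 with DESeq2, 4 with the replicate block and 988 with replicates 2 and 3 alone, and 2 to 43 without 1 library (4 without Ctrl sup replicate 1, 43 without Stat3KO sup replicate 1, 7 without Stat3KO sup replicate 3). Bead against supernatant calls were 4866 (without Ctrl sup replicate 2) to 8813 without 1 library in Ctrl. They were 2879 (without Stat3KO sup replicate 2) to 6410 in Stat3KO, with 3428 without Stat3KO sup replicate 3. The replicate block gave 10544 in Ctrl and 8999 in Stat3KO, against 7564 and 5804 in the main fit. Pomc and Cartpt passed in both genotypes throughout. The difference of ratios had 39 calls, against 97 with no filter, 63 with DESeq2, 59 with the replicate block and 24 (without Ctrl sup replicate 3) to 35 without 1 library. Pomc was -1.24 with limma-voom, and -1.35 to -1.08 without 1 library. Cartpt passed with no filter (-1.49), DESeq2 (-1.48), the replicate block (-1.47) and replicates 2 and 3 alone (-1.43, adjusted p = 0.00876), and was -1.69 to -1.22 without 1 library, passing without Stat3KO bead replicate 1 or Stat3KO sup replicate 3. The Pomc to Cartpt ratio kept its direction without each library, at -0.59 to -0.25 on the beads. Of 1447 other values recomputed, 1338 kept direction and side, 45 passed newly, 14 no longer passed, 50 counts moved and 0 changed sign. The genes and comparisons for these were chosen after values were seen. Some genes near 0 change between genotypes (such as Ghrh, Gsx1, Tbx19 and Lepr) were not recomputed there, so the lack of sign changes carries little weight. The replicate block changed no other call of Pomc or Cartpt. With replicates 2 and 3 alone, edgeR called 5.1% of all genes lower on the beads, and the lists differed. It called 6 of 13 receptors, 6 of 10 other peptides that lower feeding, 4 of 7 processing genes, 3 of 6 melanocortin genes and 4 of 10 oligodendrocyte markers lower. In the melanin-concentrating hormone list it called 2 lower. It called 1 lower in each of the opioid receptor, raised-feeding peptide, premammillary, paraventricular, neuron and tanycyte lists. In the transcription regulator, other Pomc neuron gene, astrocyte, microglia, endothelium, pituitary and choroid plexus lists it called 0 lower. The causes of these differences were not tested.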
